A study of Saccharomyces cerevisiae with 6 samples.

Results

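The 8 genes described here encode proteins of budding yeast that sort, dissolve or refold misfolded proteins, out of 5365 genes named on the array. They were taken by gene symbol and are the aggregate-sorting genes BTN2 and CUR1, the small heat shock protein genes HSP42 and HSP26, the disaggregase gene HSP104, and the J-domain genes SIS1, YDJ1 and APJ1. Each of the 8 had 1 probe, and 7 had a value in all 3 replicates, HSP26 being the exception with 2. The set was chosen with the ratios of this comparison already known, so its values are given as a description and carry no test.

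The thorium cells were Saccharomyces cerevisiae of strain S288C, growing exponentially in YPD (a rich glucose medium) with shaking at 25 °C and exposed to 5 mM thorium, an actinide metal, for 2 h. Their counterparts were S288C cells of the same medium and temperature, grown for 2 h with no treatment. PolyA RNA of the thorium cells was labelled with Cy5 and that of the untreated cells with Cy3, and both were hybridised to the same array. There were 3 hybridizations of independent biological samples, each scanned with high and again with low laser power, which gives 6 scans and 3 replicates, with no exchange of dyes, so that thorium and a dye effect cannot be told apart.

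Every value below is a log2 ratio, taken as thorium over untreated, so that a value below 0 is likely less RNA in thorium. Neither the logarithm's base nor the sign convention is stated with the deposited values. Base 2 was assumed, and the sign was taken from the labels, which list the Cy5 channel first. Scans gave a value for 40.2% to 79.3% of 6912 probes, and 3613 genes had one in all 3 replicates. Over these genes replicates 2 and 3 correlated at r = 0.56 (Pearson), whereas replicate 1 correlated with them at 0.09 and 0.02. Once the median of each array section was subtracted, as described below, replicate 1 correlated with replicates 2 and 3 at 0.31 and 0.25. Replicates 2 and 3 then correlated at 0.46, over 3609 genes. All these correlations are across genes, which share arrays and are not independent. The 3 arrays limit the precision of every mean. Limma's moderated test with Benjamini-Hochberg adjustment called 0 of the 3613 genes (0%), and 499 (13.8%) had an unadjusted p under 0.05, of which 293 were below 0 (8.11% of all) and 206 above (5.7%). Without replicate 1 it called 191.

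Proteins that lose their fold are gathered by the cell into a few deposits, from which they are refolded or degraded. In yeast, Btn2 and Hsp42 help collect them in the cytosol, Cur1 and the J-domain protein Sis1 are linked to deposits at the nucleus, and the Hsp104 ring pulls chains out of aggregates together with Hsp70 and its J-domain partners. The transcription factor Hsf1 drives many of these genes, and Msn2 and Msn4 drive the wider stress response.

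BTN2 and CUR1 had the lowest means of all 3613 genes, with the ratio read as thorium over untreated. They are paralogs left by the whole-genome duplication, and both are short-lived sorting factors whose overproduction cures cells of the prion form of Ure2. BTN2 averaged -2.33 ± 1.51 and CUR1 -1.80 ± 0.79 (SD, n = 3), that is 5.04-fold and 3.49-fold lower in thorium if the base is 2 and the direction as taken. Were the ratio the other way round, they would be the highest of all, by the same folds. The third gene from the bottom, the ribosomal protein gene RPL35B, stood at -1.65 ± 1.23 (SD, n = 3).

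BTN2 (YGR142W) read -0.81 in the high and -0.85 in the low power scan of replicate 1. The high power scan of replicate 2 gave -2.61 and the low power scan -2.03. In replicate 3 the high power scan gave -3.85 and the low power scan gave no value. All 5 readings were below 0, but replicate 1 lay far above the others, and the SD of BTN2 was larger than that of 97.1% of genes.

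Within single scans the place of BTN2 among all named genes differed in the same way. It was the lowest of 4913 genes in the high power scan of replicate 3, the lowest but 1 of 3558 in the low power scan of replicate 2, and the 13th lowest of 4986 in its high power scan. In replicate 1, 20.6% of genes were lower at high power and 11.3% at low power. So BTN2 was at the bottom of the arrays in replicates 2 and 3 and only in the lower part of the range in replicate 1.

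CUR1 (YPR158W) read -0.97 at high and -1.28 at low power in replicate 1. Its readings in replicate 2 were -1.78 at high and -1.43 at low power. Replicate 3 gave -2.67 at high power and no low power value, as for BTN2. The paralogs thus had the same order of replicates, with replicate 1 nearest to 0 and replicate 3 farthest from it. That order was not theirs alone. HIS5 had -0.91, -1.35 and -2.20 in replicates 1, 2 and 3, and URA4 had -0.80, -1.16 and -2.03. CUR1 was the 6th lowest of 4913 genes in the high power scan of replicate 3, and 15.0% of genes lay below it in that of replicate 1.

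CUR1 minus BTN2 was -0.30 in replicate 1, 0.71 in replicate 2 and 1.17 in replicate 3, a mean of 0.53 ± 0.75 (SD, n = 3). As deposited, their difference thus changed sign between replicates and was smaller than its spread. With section medians subtracted, as described below, it was 0.08, 0.60 and 1.09, a mean of 0.59 ± 0.51 (SD, n = 3). Whether the difference keeps its sign therefore rests on that step, and the order of the paralogs was not tested. Probe sequences were not used here, and whether the probes share signal was not tested.

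The missing low power readings touch both means, since replicate 3 of BTN2 and CUR1 rests on the high power scan alone. In replicate 3, 70.4% of the 27 genes with a high power log2 ratio below -2 had no low power value, against 14.7% of all 4913 genes. Genes above 2 in the high power scan of that replicate lacked one in 48.9% of 47 cases. Where both scans had a value, high minus low for BTN2 was 0.04 in replicate 1 and -0.58 in replicate 2. For CUR1 it was 0.31 and -0.35 in replicates 1 and 2. Without replicate 3, BTN2 averaged -1.57 and CUR1 -1.37, the 18th and 38th lowest of 3613.

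**Figure D1:**
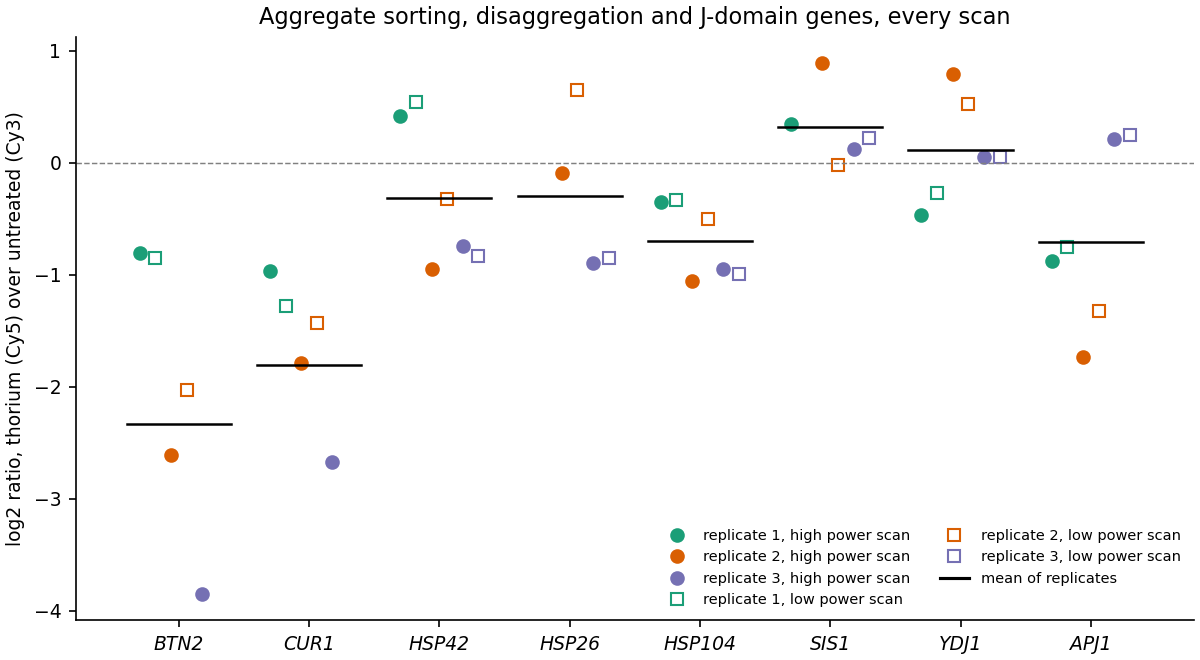
Log2 ratio (vertical axis, thorium over untreated) of each gene in every scan, with filled circles for high and open squares for low laser power, colours for the 3 replicates and a bar for the mean of replicates. All readings of BTN2, CUR1 and HSP104 lie below 0, and those of the other 5 genes lie on both sides of it.

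By the measure fixed for likeness, the Euclidean distance over the 3 replicate log2 ratios, CUR1 was the gene nearest to BTN2 among the other genes measured in all replicates, at 1.40. The reverse did not hold, as 23 genes were nearer to CUR1 than BTN2 was, led by HIS5 at 0.58. Such a distance depends on level, and it uses the ratios on which the set was chosen. Nothing is therefore read from the nearness of the paralogs, here or once section medians are subtracted. Next nearest to BTN2 after CUR1 was PPX1, an exopolyphosphatase gene, at 1.81. TFC4, a subunit gene of the RNA polymerase III factor TFIIIC, lay at 1.83 from BTN2. HIS5, a histidine synthesis gene, and FES1, an exchange factor gene of Hsp70, followed at 1.91 and 1.92 from BTN2. PPX1 stood at 0.54 in replicate 1, above 0, and at -1.42 and -3.09 in the others, so its sign in replicate 1 was opposite to that of BTN2.

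Among the small heat shock protein genes, HSP42 (YDR171W), whose product gathers misfolded proteins in the cytosol, averaged -0.32 ± 0.69 (SD, n = 3). Its readings at high and low power were 0.42 and 0.54 in replicate 1. They were -0.95 and -0.32 in replicate 2, and -0.75 and -0.84 in replicate 3. Replicate 1 was above 0 in both scans and the other replicates below it, so HSP42 had no common direction. Its mean was -0.71 without replicate 1 and -0.08 without replicate 3.

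HSP26 (YBR072W), whose product coats unfolding proteins and is activated by heat, had no value in replicate 1. No probe of its section of the array had one in that replicate. Replicate 2 gave -0.09 at high and 0.65 at low power, and replicate 3 gave -0.90 and -0.85. Its replicate values of 0.28 and -0.87 lie on both sides of 0, and it is left out of every count over 3 replicates.

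HSP104 (YLL026W), the disaggregase, averaged -0.70 ± 0.32 (SD, n = 3), and 11.2% of genes were lower. It read -0.35 at high and -0.33 at low power in replicate 1, and -1.06 and -0.50 in replicate 2. Replicate 3 gave -0.95 and -1.00. All 6 readings were below 0, and its SD was smaller than those of BTN2 and CUR1.

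The J-domain genes, whose products hand substrates to Hsp70, did not share a direction. SIS1 (YNL007C), an essential J-domain gene, averaged 0.31 ± 0.13 (SD, n = 3). It read 0.34 in the high power scan of replicate 1, which had no low power value, 0.89 at high and -0.02 at low power in replicate 2, and 0.13 and 0.22 in replicate 3. Each replicate mean was above 0, while 1 of its 5 readings was just below.

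YDJ1 (YNL064C), the most abundant J-domain protein of the cytosol, averaged 0.11 ± 0.51 (SD, n = 3). Its scans read -0.46 and -0.27 in replicate 1, 0.79 and 0.52 in replicate 2, and 0.05 and 0.05 in replicate 3, each at high and then low power. Replicate 1 and replicate 2 had opposite signs, and the mean was smaller than its SD. Without replicate 2 it was -0.16.

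APJ1 (YNL077W), a less abundant relative of YDJ1, averaged -0.71 ± 0.88 (SD, n = 3). It read -0.88 and -0.75 in replicate 1, -1.73 and -1.32 in replicate 2, and 0.21 and 0.24 in replicate 3, each at high and then low power. In replicate 3 it was therefore above 0 in both scans, and its mean was -1.17 without that replicate and -0.29 without replicate 2. In replicate 2, by contrast, 2.61% of genes lay below it at high power and 0.82% at low power.

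Of the 7 genes measured in all replicates, 3 were below 0 in every replicate (BTN2, CUR1 and HSP104), where 23.2% of all genes were. SIS1 alone was above 0 in every replicate, as were 15.4% of all genes. A mean log2 ratio below -1 was had by 2 of the 7, BTN2 and CUR1, and by 3.21% of all genes. As the set was chosen on this comparison, nothing is read from these shares.

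**Figure D2:**
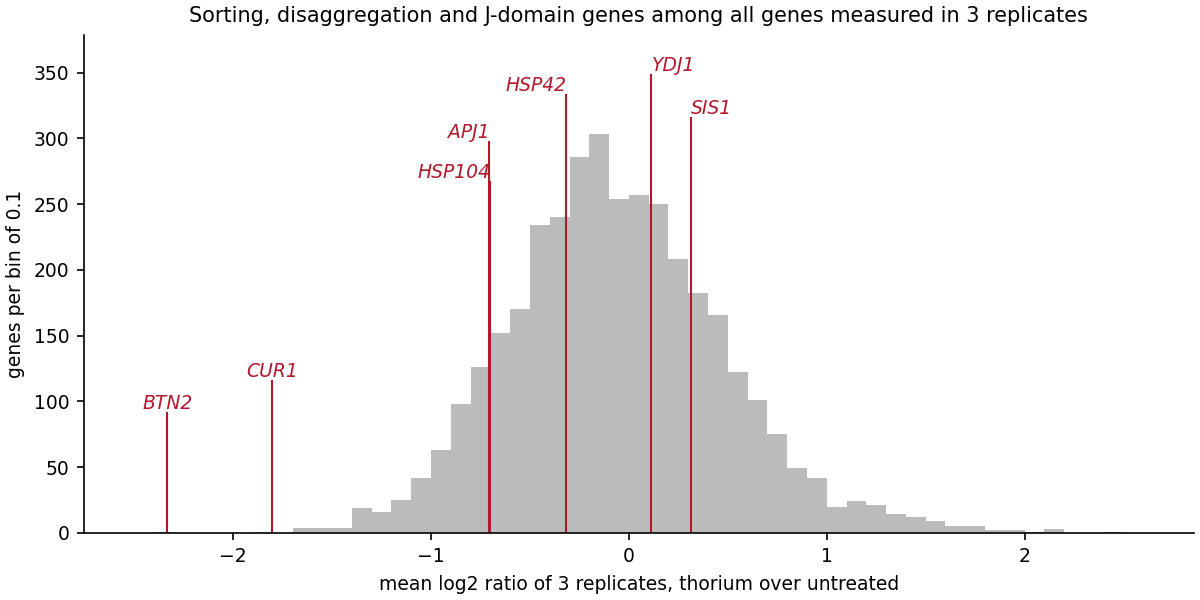
Distribution of the mean log2 ratio (horizontal axis, thorium over untreated) over 3613 genes measured in 3 replicates, as genes per bin of width 0.1, with red lines at the 7 described genes that have such a mean; line heights only separate the labels. BTN2 at -2.33 and CUR1 at -1.80 lie left of all other genes, and the other 5 lie between -0.71 and 0.31, inside the main body.

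The high and low power scans offered a comparison on which the genes were not chosen. Over 2108 genes with both scans in all replicates, limma's moderated test on high minus low power called 2 (0.0949%), TIR1 and MEH1, and 70 (3.32%) had an unadjusted p under 0.05. Without replicate 1 it called 0. HSP42, HSP104, YDJ1 and APJ1 could be tested, with mean differences of -0.22 ± 0.37, -0.18 ± 0.33, 0.02 ± 0.23 and -0.19 ± 0.20 (SD, n = 3), and 0 of these 4 passed (limma, smallest adjusted p = 0.929). The largest disagreement in any gene of the set was that of SIS1 in replicate 2, where high minus low was 0.91. The median absolute difference over all 2108 genes and 3 replicates was 0.24.

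Position on the array moved with several of these values. Probe numbers divide the array into 192 sections of 36 probes, a reading inferred from the numbers, and the section medians differed widely. The section of BTN2 had a median log2 ratio of 1.62 in the high power scan of replicate 1, against -1.00 in replicate 2 and -0.83 in replicate 3. That of CUR1 had 0.72, -0.88 and -0.75 in the same scans. In the sections of both paralogs replicate 1 was thus high and the other replicates low, as were the 2 genes' own values.

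Set against its own section, BTN2 had rank 2 from the lowest of 36 probes at high power and rank 4 of 15 at low power in replicate 1, and was the lowest of its section in the 3 other scans that gave it a value. CUR1 had rank 3 of 35 and rank 3 of 31 in the 2 scans of replicate 1, and was likewise lowest in the 3 others. With the median of its section subtracted from each scan, BTN2 stood at -2.04, -1.53 and -3.01 in replicates 1, 2 and 3, a mean of -2.20 ± 0.75 (SD, n = 3). CUR1 then stood at -1.97, -0.94 and -1.92, a mean of -1.61 ± 0.58 (SD, n = 3). Replicate 1 was no longer the nearest to 0 for either gene. BTN2 remained the lowest of 3609 genes and CUR1 became the third, behind MRPL36, a mitochondrial ribosomal protein gene, at -1.73 ± 0.99 (SD, n = 3). CUR1 was again the gene nearest to BTN2, at a distance of 1.24, while 9 genes were nearer to CUR1 than BTN2 was.

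SIS1 changed sign under this step. At high power its section had medians of 0.93, 1.34 and 0.74 for replicates 1, 2 and 3, all above its own readings. Section-centred, SIS1 stood at -0.59, -0.57 and -0.50, a mean of -0.55 ± 0.05 (SD, n = 3). The direction of SIS1 therefore rests on whether the section is taken out, and these arrays do not settle it.

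APJ1 stood at -0.31, -1.76 and -0.54 after section-centring, with a mean of -0.87 ± 0.78 (SD, n = 3). All 3 replicates were then below 0. Its section had a median of 0.83 in the high power scan of replicate 3. HSP104 stayed below 0 in each replicate, at -0.42 ± 0.25 (SD, n = 3). HSP42 and YDJ1 moved to 0.04 ± 0.49 and -0.21 ± 0.31 (SD, n = 3), each across 0. HSP26 had 0.89 and -0.10 in its 2 replicates. After the step 5 of the 7 genes were below 0 in every replicate, where 24.4% of all 3609 genes were. Nothing is read from this share either, as the step uses the ratios on which the set was chosen.

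**Figure D3:**
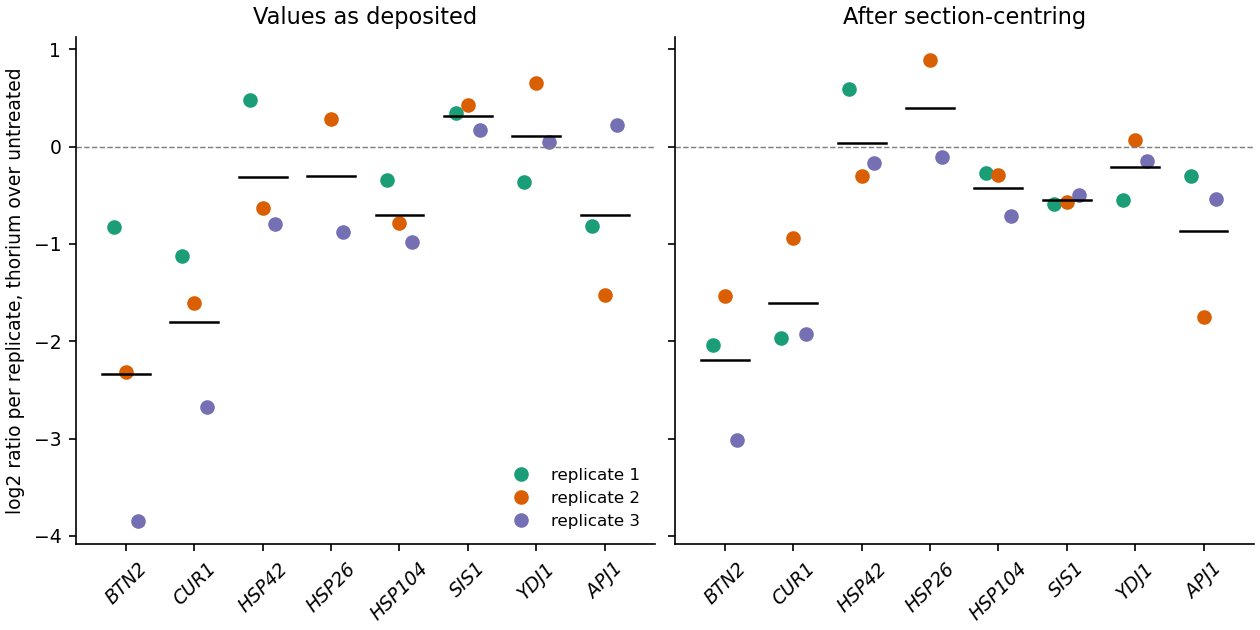
Log2 ratio per replicate (vertical axis, thorium over untreated) as deposited, left, and after subtracting the median of the array section from each scan, right, with a colour for each replicate and bars for means. BTN2 and CUR1 have the lowest means of the set in both panels, with SDs of 1.51 and 0.79 on the left and 0.75 and 0.58 on the right, while SIS1 goes below 0. On the right, replicate 2 of APJ1 at -1.76 lies below that of both paralogs.

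The other genes of the pathway were taken from 8 lists of 85 genes in all, of which 56 had a value in 3 replicates. With limma 0 of the 56 passed, and 11 had an unadjusted p under 0.05, 9 above 0 and 2 below, where 13.8% of all genes had one. Over all 3613 genes the median of the mean log2 ratios was -0.09, and 56.5% were below 0. Medians below are set beside those figures. The lists were drawn up with earlier results of these arrays known, so nothing is read from the counts within them. None was tested as a list.

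Other chaperone genes of the Hsf1 regulon lay mostly below 0, with 13 of 14 measured genes there and 6 below 0 in every replicate, where 23.2% of all genes were. Their median was -0.41, with replicate medians of -0.16, -0.39 and -0.51. FES1 stood at -1.37 ± 1.01, HCH1, an Hsp90 cochaperone gene, at -0.91 ± 0.89, HSC82, an Hsp90 gene, at -0.71 ± 0.43 and the mitochondrial J-domain gene MDJ1 at -0.69 ± 0.51 (SD, n = 3). SSE1, an Hsp110 gene, was the 1 gene not below 0, at 0.00 ± 0.06. With limma 1 of the 14 had an unadjusted p under 0.05, below 0, where 8.11% of all genes had one below 0. Section-centred, the median was -0.39, against -0.04 for all genes. Below 0 were then 12 of 14, as were 1954 of all 3609 genes. As deposited and without replicate 3, the median of the list was -0.14.

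Other target genes of Msn2 and Msn4 lay mostly above 0, with 11 of 15 measured genes there. Above 0 in every replicate were 9, as were 15.4% of all genes. The other 4 were below 0, with 2 of them below 0 in every replicate, as were 23.2% of all genes. These 2 were HSP12 at -0.82 ± 0.93, with replicate 2 just below 0, and TPS2 at -0.53 ± 0.52 (SD, n = 3). The median of the 15 was 0.75, with replicate medians of 0.65, 0.68 and 0.16, and 0.63 after section-centring. The repressor gene XBP1 stood at 1.60 ± 0.78, the glutamate decarboxylase gene GAD1 at 1.14 ± 0.21, SOL4, a 6-phosphogluconolactonase gene, at 1.14 ± 0.21 and the glycogen branching enzyme gene GLC3 at 1.12 ± 0.50 (SD, n = 3). Of the 15, 7 had an unadjusted p under 0.05 with limma, all above 0, where 5.7% of all genes had one above 0, and 0 passed after adjustment. HSP42 and HSP104 are also targets of Msn2 and Msn4, and neither was above 0 in every replicate. HSP26, a target as well, had values on both sides of 0 in its 2 replicates. These genes belong to the set chosen on this comparison, so nothing is read from their signs.

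Hsp70, Hsp110 and their exchange factors, 4 measured ones of which are also in the Hsf1 list, were spread around 0, with 4 of 7 below it and a median of -0.06. FES1 lay lowest in that list. SNL1, another exchange factor gene, stood at 0.78 ± 0.53, SSA4, a stress-inducible Hsp70 gene, at -0.44 ± 0.28 and SSB2, a ribosome-bound Hsp70 gene, at 0.22 ± 0.20 (SD, n = 3). After section-centring the median of the list was 0.07, on the other side of 0.

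The other J-domain genes had a median of 0.00, with 5 of 11 below 0. Below 0 in every replicate were 2, as were 23.2% of all genes. HLJ1, a J-domain gene of the endoplasmic reticulum membrane, stood at -1.31 ± 1.08, with -0.24, -2.41 and -1.27 in replicates 1, 2 and 3. MDJ1 was next in size, followed by JJJ2 at 0.59 ± 0.39 and SCJ1, of the endoplasmic reticulum lumen, at 0.38 ± 0.10 (SD, n = 3). HLJ1 was thus below 0 in every replicate, and JJJ2 and SCJ1 were above 0 in every replicate, as were 15.4% of all genes. JJJ2 stood at 0.05 after section-centring.

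Quality-control ubiquitin ligases and Cdc48 factors, which mark and extract misfolded proteins, had a median of 0.13 over 5 measured genes. RKR1, the ligase gene of stalled ribosomes, stood at 0.96 ± 0.57 and HUL5, a proteasome-bound ligase gene, at 0.34 ± 0.20, while CDC48 and its cofactor gene UFD1 stood at -0.66 ± 0.51 and -0.47 ± 0.09 (SD, n = 3). The ligases RKR1 and HUL5 were above 0 in every replicate, as were 15.4% of all genes. CDC48 and UFD1 were below 0 in every replicate, as were 23.2% of all genes. The median of the list was -0.27 in the low power scans alone and lay below 0 in 4 of 10 alternatives.

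Genes whose products bind Btn2 or work beside it had a median of -0.09 over 4 genes. RHB1, a small GTPase gene, stood at -0.49 ± 1.45, YHC3, a vacuolar membrane protein gene also called BTN1, at 0.26 ± 0.35, YIF1, a transport vesicle protein gene, at -0.17 ± 0.15 and IST2, of contacts between endoplasmic reticulum and plasma membrane, at -0.02 ± 0.48 (SD, n = 3). In each but YIF1 the replicates had both signs.

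Prion protein genes were measured for 3 of 8 listed, SUP35 at -0.02 ± 0.75, CYC8 at -0.25 ± 0.58 and SFP1 at 0.37 ± 0.61 (SD, n = 3). Among the stress regulators, HSF1 itself stood at 0.26 ± 0.54 and MSN4 at 0.50 ± 0.79 (SD, n = 3). The replicates of these 5 genes lay on both sides of 0.

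**Figure D4:**
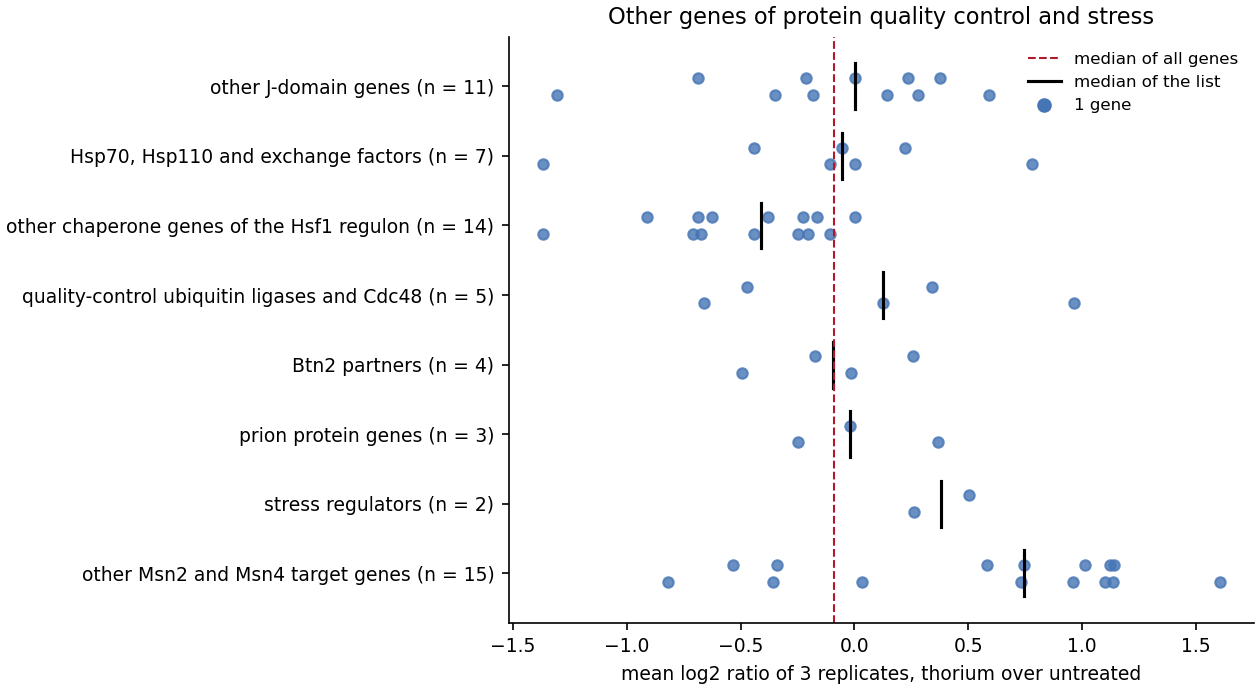
Mean log2 ratio of 3 replicates (horizontal axis, thorium over untreated) of each measured gene in the 8 lists, with black bars for list medians and a red dashed line for the median of all genes, -0.09; 1 gene may stand in more than 1 list. The Hsf1 list lies mostly left of 0 with a median of -0.41, and the Msn2 and Msn4 list mostly right of it with a median of 0.75.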

How the data were processed

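The deposited table was taken to hold a log2 ratio for every spot of every scan. Per the labels, the authors normalized unflagged spots (flag 0) by LOWESS and merged both scans of an array in GeneSpring. That merge is not used here. Scanner, image software and background correction: not given in the sources used here. A shift common to most genes is removed by LOWESS and is invisible in these ratios. The 6 scans had medians between -0.16 and 0.01, with SDs between 0.61 and 1.05.

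A single gene name was had by 5513 of 6912 probes, several by 0, and 1399 had no name here. Symbols were updated by Entrez ID for 5360 of 5365 genes (assembly R64). Values were averaged over probes of a gene and then over both scans, and genes in all 3 replicates were kept. Each was tested against 0 with limma 3.58.1 in R 4.3.3 (lmFit, eBayes, 2-sided, Benjamini-Hochberg, threshold 0.05), with 2 residual and 4.43 prior degrees of freedom, after a check on simulated data. Section-centring used the first 3 digits of the probe number and sections with at least 5 values.

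The genes and lists were chosen with earlier results of these data known. Named from each list were up to 4 genes with the largest absolute mean, and 5 genes nearest to BTN2. SSE1, HSP12, TPS2, RPL35B and MRPL36 were added after their values were seen. Alternatives were each scan power, median and quantile centring, sections, other filters, left-out replicates, a replicate random block, array weights, a robust prior and unadjusted p. No sequence table was used here, so no sequences are shown.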

Additional observations from a re-analysis of the deposited data

How the results depend on the processing

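BTN2 and CUR1 were below 0 under all 8 alternatives that gave them a value, from -3.08 to -1.57 and from -2.14 to -1.37, and they had no value in the low power scans alone or among genes with both scans in all replicates. HSP104 (-0.88 to -0.42) and APJ1 (-1.17 to -0.29) were below 0 under all 10. SIS1 moved by more than its SD to 0.45 in the high power scans alone and to -0.55 after section-centring, and HSP42 (0.04) and YDJ1 (-0.21) also crossed 0 after section-centring, YDJ1 also without replicate 2 (-0.16). Section-centring with each replicate left out, chosen after seeing the data, gave -2.53 to -1.79 for BTN2, -1.94 to -1.43 for CUR1, -0.58 to -0.53 (-0.54 without replicate 2) for SIS1 and -0.50 to -0.28 for HSP104. Among genes in at least 2 replicates BTN2 had rank 2 and CUR1 rank 11 from the lowest of 4956. The number of genes called for thorium went between 0 and 191 with a replicate left out (191 without replicate 1) and between 0 and 107 with section-centring as well (25 without replicate 1, 107 without replicate 3), was 499 at an unadjusted p, and was 0 under the other alternatives, the replicate random block among them. The count for high minus low power was 0 with median-centred scans and between 0 and 2 with a replicate left out. With a replicate left out, the median of the Hsf1 list ran from -0.45 to -0.14 and that of the Msn2 and Msn4 list from 0.71 to 0.90. Over all 10 alternatives they ran from -0.55 to -0.14 and from 0.53 to 0.94. The 0.53 came from genes in at least 2 replicates, which gave 20 genes of the Msn2 and Msn4 list. The causes were not tested. Each ratio already pairs thorium with untreated RNA of the same array. How bright each spot was is not known here, since only ratios were analysed.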

Other observations

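Of the listed genes, 19 had values in replicates 2 and 3 alone and entered no count above. Of these 9 were below 0 in both, 5 above 0 in both and 5 on both sides, where 36.7% of all 1177 such genes were below 0 in both and 36.9% above. Those named here were picked after their values were seen. ZUO1, the J-domain gene of the ribosome, stood at -1.00 in replicate 2 and -0.80 in replicate 3. HSP78, the mitochondrial relative of HSP104, stood at -0.96 and -0.83 in the same replicates. SHP1, a Cdc48 cofactor gene, stood at -1.11 and -1.29, and NPL4, another, at -1.01 and -0.59. NEW1, a prion-forming protein gene, stood at -1.04 and -0.96, and RNQ1, whose prion needs Sis1, at -0.44 and -0.34. The others below 0 in both were the J-domain gene PAM18 at -1.14 and -0.42, TPS1 at -0.02 and -0.23, and RTN2 at -0.13 and -0.45. TPS1, RTN2 and HSP78 belong to the Msn2 and Msn4 list, as do SSA3 and YGP1. SSA3, a stress-inducible Hsp70 gene, differed in sign between replicates 2 and 3, at 0.26 and -1.12. The 5 above 0 in both were CWC23, a J-domain gene of splicing, at 2.02 and 0.48, the J-domain genes JJJ1 at 0.17 and 1.06 and JJJ3 at 0.28 and 0.01, the regulator gene YAP1 at 0.14 and 0.15, and YGP1, a stress-induced wall glycoprotein gene, at 0.60 and 0.37.

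Some J-domain genes with a mean near 0 had very different replicates. MDJ2 had 3.40, -0.78 and -1.79 as its 3 replicate log2 ratios, and JAC1 had 2.82, -0.37 and -2.02.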
